A study of Homo sapiens with 4 samples.

Results

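The 73 genes described here encode proteins of the cytosolic ribosome. They are the protein-coding genes on autosomes whose symbol starts with RPL or RPS and a digit, with RPLP0, RPLP1, RPLP2 and RPSA, and without the ribosomal S6 kinases and the paralogues with a suffix such as L1. They were taken from 18783 autosomal protein-coding genes with a known strand, and 43 belong to the large and 30 to the small subunit. The rule uses symbols and chromosomes and no measured value. H3K27Ac, a histone mark of active promoters and enhancers, was mapped by ChIPmentation, in which sequencing adapters are inserted into immunoprecipitated chromatin by a transposase. The cells were MOLM13, an established AML line with an MLL1 rearrangement, so both libraries come from a single cell line. One library came from control cells and the other from cells exposed to 500 nM of SNDX-50469, an inhibitor of the Menin interaction with MLL1, for 16 h. The labels give the control no treatment, while the treatment description names a DMSO arm. There was 1 H3K27Ac library for each condition, while the 2 inputs have no values in what follows and were not used here. All values are therefore descriptions of these libraries, without a replicate check or a test.

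The cytosolic ribosome translates messenger RNA, and its 2 subunits need each of their proteins in about equal amounts. The genes for these proteins are scattered over the chromosomes, are expressed in all growing cells and have compact promoters at which transcription starts on a cytosine within a run of pyrimidines. This run stays at the start of the messenger RNA as the 5′ terminal oligopyrimidine (TOP) motif, through which translation of these messages follows growth signals. Acetylated H3K27 lies on the nucleosomes that flank an active start, and at highly expressed genes it reaches into the gene body.

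The control list held 245875 broad peaks over 224 Mb, and the SNDX-50469 list held 54061 peaks over 29.4 Mb. Control peaks began at a −log10 p of 2.68 and SNDX-50469 peaks at 3.93, so the lists do not share a cutoff, and the read depth behind each is unknown. Chromosome 8 held 10.5% of the control peaks and 41.9% of the SNDX-50469 peaks. Of 9 myeloid marker genes, 9 had control cover around the 5′ end (1 kb to each side), against 4 of 10 markers of other cell types and 61.1% of all autosomal genes. A control peak with −log10 q of at least 5 lay there at 6 of the 9 and 1 of the 10. After SNDX-50469, cover was again found at 6 of the 9 and 1 of the 10. Peak positions and lengths were compared between the lists, and peak strengths were ranked only within a list. Some counts below apply the same strength cutoff to both lists.

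Control cells carried H3K27Ac peaks around the outermost annotated 5′ end of every ribosomal protein gene. These peaks were largely still present after SNDX-50469, while peaks farther from the 5′ end were mostly gone. The 5′ window was the 2001 bp within 1 kb of the outermost annotated 5′ end. In control, 73 of 73 windows held peak cover, beside 61.1% of all autosomal genes. After SNDX-50469, 72 of 73 held cover, beside 31.2% of all genes. RPL11, whose protein binds 5S rRNA and MDM2, was the exception. Among genes with a covered window in control, 50.1% of all genes were still covered after treatment, and the 72 of 73 ribosomal protein genes amount to 98.6%. Cover here means at least 1 bp. With at least 50% of the window required, 70 of 73 were covered in control, beside 44.0% of all genes, and 49 of 73 after SNDX-50469, beside 14.1%.

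The length of the cover told the same order. Summed over the 73 windows, cover was 127854 bp in control and 85567 bp after SNDX-50469, and 84380 bp were covered in both lists. The kept share, which is the percent of the control-covered length that was also covered after treatment, was thus 66.0% over the sum and 65.6% at the median gene. Over all autosomal genes it was 34.5% of the summed length, with a median of 0 because 50.3% of the covered genes kept none. At least 50% of the control cover was kept by 57 of 73 ribosomal protein genes, beside 26.9% of all genes. The SNDX-50469 cover lay within the control cover for 98.6% of its length, and 1187 bp at 11 genes lay outside it. Only RPS14 and RPS26 had longer cover after treatment, with RPS14 at 1280 bp in control and 1393 bp after, and RPS26 at 1621 bp and 1736 bp.

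**Figure D1:**
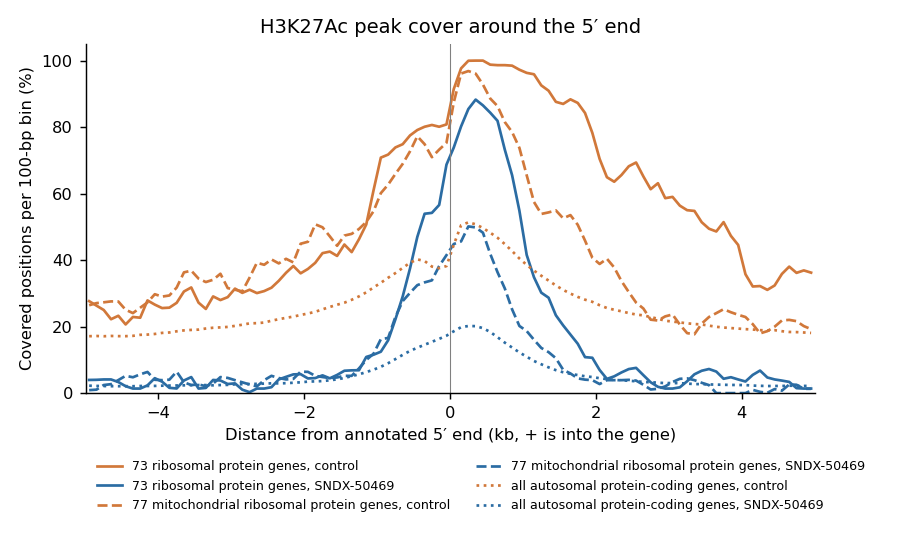
Percent of positions covered by H3K27Ac peaks in 100-bp bins from 5 kb before to 5 kb after the annotated 5′ end, for the 73 ribosomal protein genes (solid), 77 mitochondrial ribosomal protein genes (dashed) and all autosomal protein-coding genes (dotted), in control (orange) and after SNDX-50469 (blue). The ribosomal protein genes peak at 100% in control and 88.3% after treatment, in the bin 300 to 400 bp inside the gene, and the treated curve is the narrower of the pair.

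Cover after SNDX-50469 was densest just inside the genes. In the bin from 300 to 400 bp downstream of the 5′ end, 100% of positions were covered in control and 88.3% after SNDX-50469, as the profile around the 5′ end shows. The highest bin over all genes, 200 to 300 bp downstream, had 51.4% and 20.2%. Bins with at least 50% cover ran from 1200 bp upstream to 3800 bp downstream in control, with 48 such bins, and from 400 bp upstream to 1000 bp downstream after treatment, with 14. In the 1 kb upstream of the 5′ end, 27982 bp or 49.8% of the summed control cover was kept, and in the 1 kb downstream 56398 bp or 78.7%. At 10 genes the treated cover was longer upstream than downstream. The same shares over all autosomal genes were 32.1% and 36.4%, so the downstream side carried the larger gap between the ribosomal protein genes and all genes.

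Promoter letters were available for 58 of the 73 genes in RefSeq (GRCh38.p14), from 250 bases before to 50 after the start. The 7 promoters below are shown because they belong to the genes that kept the most cover (RPL28 and RPS14), the least (RPL11, RPSA and RPL26), and to RPS19 and RPLP0. RPL37 and RPL7, which also kept all of their cover, are named only. Each runs 5′ to 3′ on the gene's strand with 150 bases before the start and 20 from the start on, and capitals mark the pyrimidine run that holds the start base and any match to a motif searched.
RPL28 (chr19:55385782-55385951, plus strand): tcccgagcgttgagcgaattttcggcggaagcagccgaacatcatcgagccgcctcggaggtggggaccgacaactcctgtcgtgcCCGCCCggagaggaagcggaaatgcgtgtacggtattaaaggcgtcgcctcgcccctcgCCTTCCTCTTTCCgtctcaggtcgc
RPS14 (chr5:150449720-150449889, minus strand): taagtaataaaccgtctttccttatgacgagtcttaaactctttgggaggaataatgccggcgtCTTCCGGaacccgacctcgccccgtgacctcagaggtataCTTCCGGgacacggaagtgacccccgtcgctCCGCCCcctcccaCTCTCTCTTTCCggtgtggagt
RPL11 (chr1:23691629-23691798, plus strand): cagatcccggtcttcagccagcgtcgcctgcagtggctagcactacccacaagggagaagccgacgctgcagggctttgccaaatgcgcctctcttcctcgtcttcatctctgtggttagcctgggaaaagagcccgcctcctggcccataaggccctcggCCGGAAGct
RPSA (chr3:39406570-39406739, plus strand): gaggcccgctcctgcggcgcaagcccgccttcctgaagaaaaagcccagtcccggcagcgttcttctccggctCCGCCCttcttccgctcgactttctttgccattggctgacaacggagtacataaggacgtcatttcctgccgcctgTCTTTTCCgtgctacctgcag
RPL26 (chr17:8383174-8383343, minus strand): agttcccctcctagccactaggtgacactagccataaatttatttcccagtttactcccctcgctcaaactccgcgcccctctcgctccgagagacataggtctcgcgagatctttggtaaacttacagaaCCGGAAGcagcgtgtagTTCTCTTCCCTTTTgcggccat
RPS19 (chr19:41860105-41860274, plus strand): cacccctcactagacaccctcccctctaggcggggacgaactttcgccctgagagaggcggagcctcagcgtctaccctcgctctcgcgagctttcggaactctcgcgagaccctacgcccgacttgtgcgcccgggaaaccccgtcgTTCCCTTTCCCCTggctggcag
RPLP0 (chr12:120201092-120201261, minus strand): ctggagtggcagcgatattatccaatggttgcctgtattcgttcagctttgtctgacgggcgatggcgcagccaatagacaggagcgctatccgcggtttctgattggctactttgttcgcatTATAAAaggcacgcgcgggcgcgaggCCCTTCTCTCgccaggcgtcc

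In these 7 promoters the length of the run did not follow the cover kept. RPL28, which kept its whole window, has a run of 13 pyrimidines, and RPL26, which kept 8.39%, has 14. RPSA has 8, RPLP0 has 10, RPS14 has 12 and RPS19 has 13. The listed start of RPL11 is not a pyrimidine, so no run is capitalised there. A C at the start base followed by 4 pyrimidines was found in 40 of 58 ribosomal protein genes (69.0%), beside 4.57% of 15100 autosomal protein-coding genes with letters. The median kept share was 65.0% in the 40 genes with these letters and 59.0% in the 18 without.

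Short motifs were searched on both strands of the 300-base windows. The GC box GGGCGG was in 31 of 58 ribosomal protein genes (53.4%) and in 58.9% of all promoters. The core of ETS factor sites, CCGGAAG, was in 20 (34.5%) beside 14.4%, and it occurs at 2 places in the RPS14 letters above, as CTTCCGG on the printed strand. The YY1 core AAGATGG was in 8 (13.8%) beside 6.31%. The TATA box TATAAA was in 5 (8.62%) beside 9.71%, and RPLP0 carries it in the letters above. The E-box CACGTG was in 3 (5.17%) beside 8.77%. The ETS and YY1 letters can overlap, and did so in 0 of the 58. Genes with CCGGAAG had a median kept share of 60.9% and those without it 67.1%, and for GGGCGG the medians were 68.5% with and 60.4% without. These matches are counts of letters in a window and not measured binding.

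**Figure D2:**
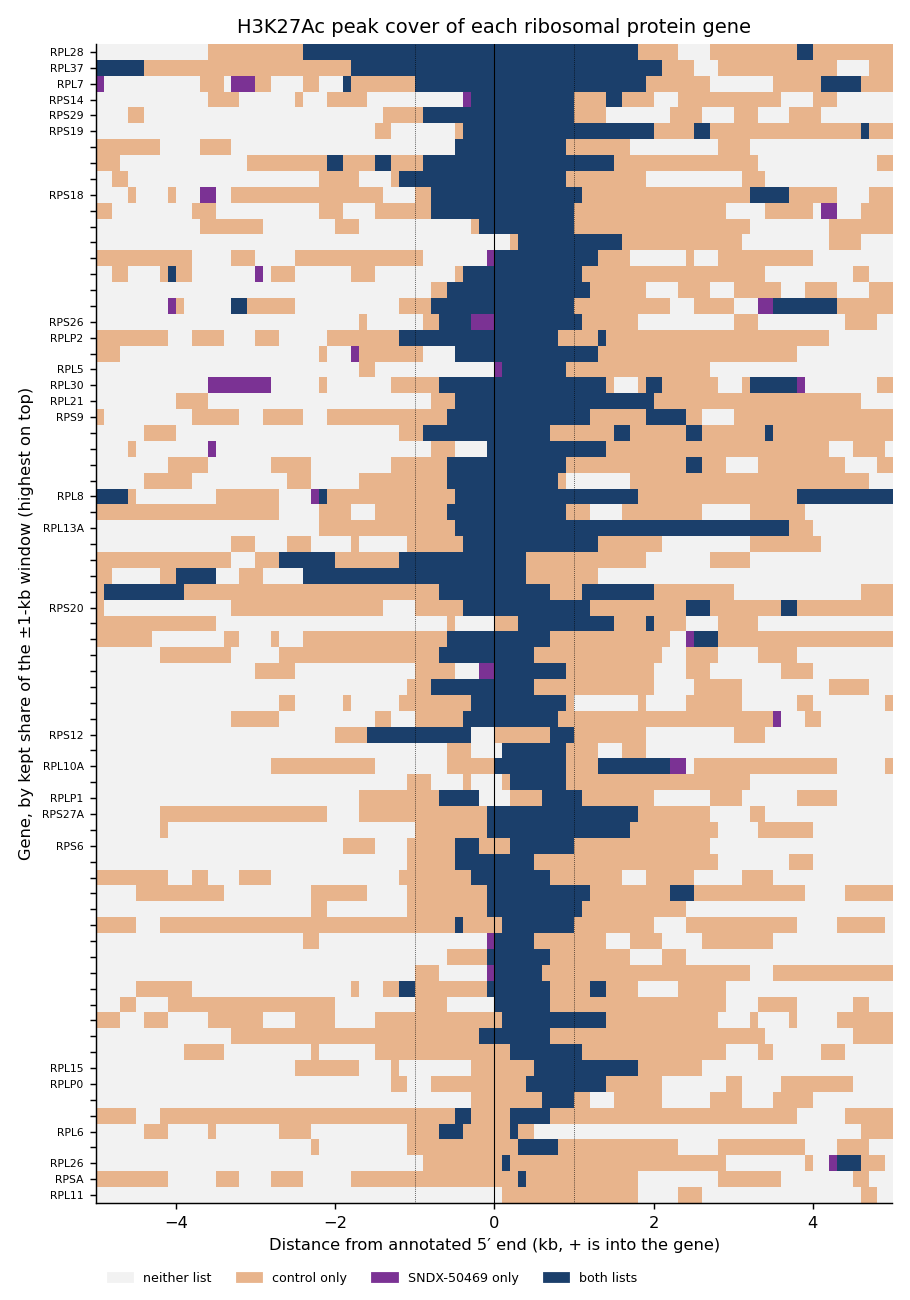
H3K27Ac peak cover of each of the 73 ribosomal protein genes from 5 kb before to 5 kb after the annotated 5′ end (x axis, kb), with genes on the y axis ordered by the kept share of the window within 1 kb (dotted lines) and labelled where the text describes them. A 100-bp bin is coloured when at least 50 of its bases are covered, in control only (light orange), after SNDX-50469 only (purple) or in both lists (dark blue); the dark blue column at the start thins from RPL28 at the top to RPL11 at the bottom.

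The individual genes ranged from complete to no overlap, as the map of cover by gene shows. At least 90% of the window cover was kept by 15 genes and under 10% by 3, with 55 between, while of all autosomal genes with control cover 8.95% kept at least 90% and 53.5% kept under 10%. RPL28, RPL37 and RPL7, all of the large subunit, kept all of it, with 2001 bp covered in each list. RPS14, the small-subunit gene whose loss marks the 5q deletion in myelodysplasia, had 1280 bp in control, of which 1276 bp (99.7%) were kept. RPS29, also of the small subunit, had 2001 bp in control and 1947 bp after treatment, a kept share of 97.3%. These 5 genes kept the most. The windows of RPL7 and RPS29 also hold the 5′ ends of RDH10 and LRR1.

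At the other end stood RPL11, with 938 bp of the window covered in control and none after SNDX-50469. Nor was any of the 3794 bp over its gene body and flanks covered after treatment. RPSA, a small-subunit protein also known as a laminin receptor, had 2001 bp in control and 129 bp after, a kept share of 6.45%. RPL26, mutated in some families with Diamond-Blackfan anaemia, had 1872 bp and 157 bp, a kept share of 8.39%. RPL6 of the large subunit, also among the 5 lowest, had 1511 bp and 431 bp (28.5%). These values depend on where a gene is taken to begin. The window of RPL6 also holds the 5′ end of PTPN11. Around the first listed start of RPL6, 7393 bp farther in, neither list had cover. Around its other listed start, 9550 bp farther in, 51.6% of 1327 bp were kept. With the first listed start used where there is one, 72 of 73 windows were covered in control. For RPS27A, the gene of a ubiquitin fusion protein, the kept share was 55.9% of 2001 bp at the outermost end and 95.1% at a start 785 bp farther in. For RPL15 it was 40.2% at the outermost end and 59.1% at a start 587 bp in. RPL11 kept none at either of its listed starts.

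The stalk proteins recruit elongation factors to the ribosome, and their genes differed among themselves. RPLP2 had 2001 bp of window cover in control and 1755 bp after SNDX-50469 (87.7% kept). RPLP1 had 1692 bp and 947 bp (56.0%), and RPLP0 had 1765 bp and 599 bp (33.9%). RPLP0 still had 2205 bp over gene and flanks, 1606 bp of it outside the window. RPL5, which joins RPL11 and 5S rRNA in one particle, had 887 bp in control and kept 84.2%, with 814 bp covered after treatment. The 2 partners of this particle therefore stood far apart in the list. RPS6, the substrate of S6 kinase, had 2001 bp and 1071 bp (53.5%). RPL13A, whose protein also acts in translational control during inflammation, had 2001 bp and 1462 bp (73.1%). RPS19, the gene most often mutated in Diamond-Blackfan anaemia, had 1464 bp and 1393 bp (95.2%).

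The groups of ribosomal protein genes lay close to each other. The median kept share was 73.1% over the 43 large-subunit genes and 63.5% over the 30 small-subunit genes, while the shares of the summed length were 67.0% and 64.7%. The 17 Diamond-Blackfan anaemia genes had a median of 64.4%, with 16 of 17 windows covered after SNDX-50469. The 22 genes that host small nucleolar RNAs in their introns had 68.2%, with all 22 covered. The 5′ end of another annotated gene lay in the window of 18 genes. At RPS10 and RPL17 it was that of a read-through gene, RPS10-NUDT3 and RPL17-C18orf32, and not of a neighbour. At the rest the peaks of the neighbours cannot be told apart. The median of the 18 was 66.4% beside 65.6% for the other 55.

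Beyond the 5′ window, cover was lost at nearly all of these genes. Over each gene and its flanks of 5 kb, summed cover was 513757 bp in control and 143172 bp after SNDX-50469, with 26.5% kept and a median of 24.4% per gene. The same length was shorter after treatment at 73 of 73 genes, beside 98.1% of all autosomal genes with control cover there. It fell to 50% of control or less at 67 of 73 (91.8%), beside 93.7% of all genes. In this count the ribosomal protein genes were close to the background. At least 50% of the control length was kept by 3 of 73 (4.11%), beside 2.75%. The kept share did differ in level, since all genes had 11.5% of the summed length and a median of 2.60%. Outside the window alone, 385903 bp in control left 51965 bp kept, or 13.5%, with a median of 6.90%, beside 9.20% and a median of 0 over all genes. The gap was thus smaller there, and the window also fills more of these short genes, with a median length of 4799 bp beside 25179 bp.

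The 3 genes with the longest control cover show this change. RPL28 had 16692 bp over gene and flanks in control and 6524 bp after SNDX-50469. RPS19 had 15903 bp and 6525 bp. RPS9, of the small subunit, had 13543 bp and 2683 bp, while its 5′ window kept 79.7%. Each thus lost over 9 kb, nearly all of it outside the window. RPL13A kept the highest share over gene and flanks, 63.9%, with 9234 bp in control and 5896 bp after. RPL8 was also past 50%, with 53.5%.

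**Figure D3:**
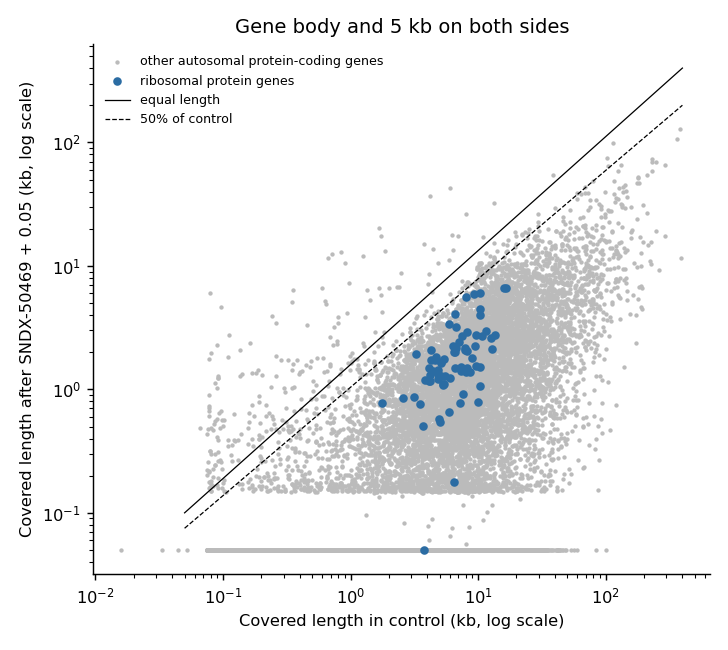
Length covered by H3K27Ac peaks across each gene and its flanks of 5 kb, in control (x axis) and after SNDX-50469 (y axis, with 0.05 kb added so that 0 can be drawn), both in kb on log scales, for the 73 ribosomal protein genes (blue) and the other autosomal protein-coding genes (grey). All 73 blue points lie below the line of equal length, with RPL11 at 0 on the lower edge, and 67 are at or below the 50% line.

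The peaks at these promoters were strong within their own lists in control. The strongest peak touching each window had a median rank of 4517 by −log10 p among the 245875 control peaks, with ranks from 203 to 10094. All 73 genes had a peak in the top 10% of the control list, as did 44.4% of all autosomal genes. After SNDX-50469 the median rank was 4507.5 of 54061 peaks over the 72 genes with a peak, and 38 of 73 (52.1%) were in the top 10%, beside 13.6% of all genes. The peaks were shorter as well. The median width of this strongest peak was 3530 bp in control and 1351 bp after treatment.

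RPL7, a large-subunit gene on chromosome 8, had the best-ranked peak in both lists, rank 203 in control and rank 42 after SNDX-50469. Its window also holds the 5′ end of RDH10, so this peak cannot be assigned to RPL7 alone. RPL10A and RPS12 followed in control, at ranks 426 and 487. RPL21 and RPL10A followed after treatment, at ranks 512 and 545. RPL10A, a large-subunit gene, thus ranked high in both lists although its window cover went from 1645 bp to 931 bp. RPS12, of the small subunit, went from 1663 bp to 1066 bp and RPL21, of the large subunit, from 1793 bp to 1479 bp.

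A high strength threshold gave a different picture. With a −log10 q of at least 5 in each list, 71 of 73 windows were touched by a control peak, beside 28.5% of all genes. After SNDX-50469 only 7 of 73 (9.59%) were touched by such a peak, beside 3.84% of all genes. They were RPL7, RPL10A, RPL21, RPL30, RPS18, RPS19 and RPS29. Of all genes touched by such a peak in control, 13.4% were so after treatment, so on this measure the 7 of 71 ribosomal protein genes did not stand above the background. The −log10 q depends on the library and its depth, and the part of depth in this change was not tested.

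Peak strength in control varied with the cover kept, so all genes of like strength were set beside the ribosomal protein genes. This comparison was chosen after the data had been seen. Between the lowest and highest −log10 p of the ribosomal protein genes, 6.67 and 20.8, there were 5557 autosomal genes, themselves included, of which 80.6% were covered after SNDX-50469 and 49.3% kept at least 50%. The counts for the ribosomal protein genes were 72 of 73 (98.6%) and 57 of 73 (78.1%). Where the 24 strongest lay, from 10.1 to 20.8, the median kept share was 80.6% beside 72.6% for 2127 genes. For the middle 25, from 8.65 to 10.1, it was 64.0% beside 49.3% for 1111 genes. For the weakest 24, from 6.67 to 8.64, it was 53.0% beside 26.5% for 2282 genes. The ribosomal protein genes thus had the higher median in each range, by the most among the weakest peaks. When the control list was instead trimmed to the covered length of the SNDX-50469 list, which left 26 covered windows of the ribosomal protein genes, their median of 83.5% stood close to the 79.5% of all genes. In the weakest range the downstream 1 kb kept 71.3% of its summed cover beside 36.2% for all genes, while the upstream 1 kb kept 29.9% beside 31.5%. Across the 73 genes, −log10 p and kept share had a Spearman rho of 0.41 and a Pearson r of 0.37, given as a description because the genes share both libraries.

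**Figure D4:**
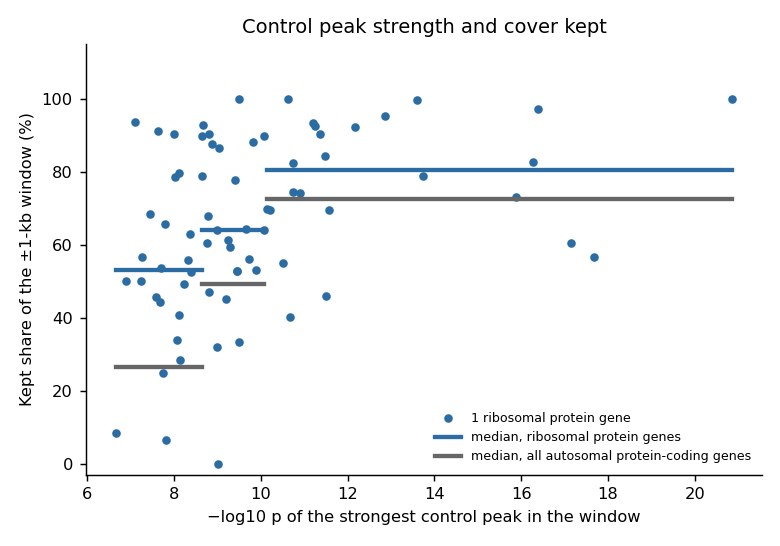
Kept share of the 5′ window (y axis, %) against the −log10 p of the strongest control peak in that window (x axis) for the 73 ribosomal protein genes (points). Horizontal lines are medians over the ribosomal protein genes (blue) and all autosomal protein-coding genes (grey) in 3 ranges of −log10 p; blue lies above grey in each, at 53.0% against 26.5%, 64.0% against 49.3% and 80.6% against 72.6%.

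Windows filled with peaks in control mostly stayed covered in part. At least 95% of the window was covered in control at 42 of 73 ribosomal protein genes, beside 19.3% of all genes, and after SNDX-50469 at 4 of 73, beside 3.54%. All 42 were still covered to some length after treatment, beside 80.4% of all genes with such a window, and 35 of 42 kept at least 50%, beside 49.8%. Cover of at least 95% was kept at 4 of the 42 (9.52%), beside 15.7% of all genes with such a window, so on that count the ribosomal protein genes lay below the background.

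Other genes of the translation machinery differed in how much they kept. For 77 mitochondrial ribosomal protein genes, which make the separate ribosome of mitochondria, 76 windows were covered in control and 50 after SNDX-50469, with a median kept share of 34.4%. For 38 proteasome subunit genes, which act in protein breakdown, 35 and 21 were covered, with a median of 25.5%. For 30 genes of ribosome assembly the counts were 30 and 22 and the median 52.1%. The 38 translation factor genes came nearest to the ribosomal protein genes, with 37 and 32 covered, a median of 62.8% and 63.1% of the summed length. Of the 37, 7 kept all of their window cover, among them EEF1A1, which brings aminoacyl-tRNA to the ribosome, and 5 had none after treatment, among them EEF1G, of the elongation factor that reloads EEF1A1, with 1583 bp in control, and EIF3L, of the initiation factor eIF3, with 2001 bp. The lists also differed in control peak strength. A control peak with −log10 q of at least 5 touched 97.3% of ribosomal protein windows. For translation factor, assembly, mitochondrial and proteasome genes the shares were 84.2%, 63.3%, 53.2% and 39.5%. Among windows at least 95% covered in control, the genes that kept at least 50% were 83.3%, 71.4%, 71.4%, 54.3% and 66.7% in the same order. No test separates these lists, and the part of peak strength in their order was not tested.

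**Figure D5:**
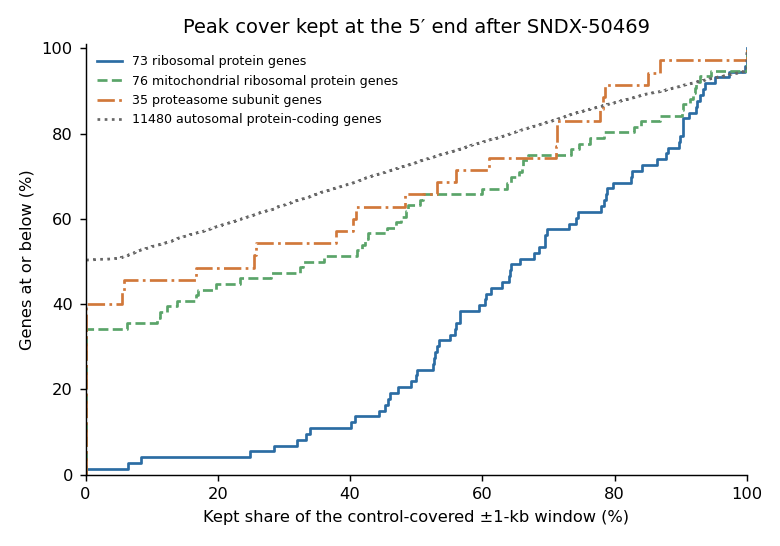
Cumulative percent of genes (y axis) at or below each kept share of the control-covered 5′ window (x axis, %), for the 73 ribosomal protein genes, 76 mitochondrial ribosomal protein genes, 35 proteasome subunit genes and 11480 autosomal protein-coding genes with control cover there. Among the lists drawn, the ribosomal protein curve lies farthest to the right over most of the range, with a median of 65.6% beside 34.4%, 25.5% and 0. The translation factor genes are not drawn, and the lists differ in control peak strength.

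Menin and MLL-fusion target genes that the study followed for H3K27Ac mostly showed another shape. They were CDK6, JMJD1C, LAMP5, MEF2C, MEIS1, PBX3 and SENP6. Of their 7 windows, 6 were covered in control and 5 after SNDX-50469, with a median kept share of 86.6% over the 6. MEIS1 went from 2001 bp to none, and MEF2C had no control cover in its window. Over gene and flanks, where their control cover had a median of 112589 bp, only 5.14% of the summed length was kept, beside 26.5% for the ribosomal protein genes. LAMP5, the shortest of them, kept 47.1% of 18153 bp, and the others kept from 2.96% to 6.46%. The target genes are also far longer, with a median length of 186989 bp beside 4799 bp, and the part of length in this difference was not tested. The study names these genes in its own account of H3K27Ac in these cells, and they are given here for the shape of their cover alone.

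The 4 genes on chromosome 8 need their own mention because of the share of SNDX-50469 peaks on that chromosome. RPL7 kept all of its window cover, RPL30 82.7% of 2001 bp, RPL8 74.5% of 2001 bp and RPS20 67.8% of 1995 bp. Over gene and flanks RPL7 had 8018 bp in control and 5548 bp after treatment, RPL30 had 6646 bp and 4034 bp, RPL8 had 10363 bp and 5982 bp, and RPS20 had 12549 bp and 2568 bp. They had a median kept share over gene and flanks of 48.9%, beside 24.3% for the other 69 genes. Without them the 5′ windows kept 65.0% of their summed cover, with a median of 64.1%.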

How the data were processed

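H3K27Ac peaks were analysed in 1 control and 1 SNDX-50469 library of MOLM13 cells. The submitters' processing notes name Trim Galore 0.6.5, Bowtie2 2.3.4.2, Picard 2.9.0 and MACS2 2.1.2, and the study's methods name TopHat2 with hg38. The handling of reads that map to several places, as those of ribosomal protein pseudogenes can, and the use of input are not given in the sources used here. For each library the authors deposited a list of broad peaks, with a ratio (fold over background), −log10 p, −log10 q and a score that was not used on its own. These values are relative to each library's own background and are not scaled between libraries.

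Genes were those of GRCh38.p14 in RefSeq. The strand came from the promoter table for 58 members and by symbol from GENCODE for 15. For promoter letters the first listed start was used, which is the outermost end in 55 of 58 genes. Covered lengths were counted with Python 3.11.15, numpy 2.4.6 and pandas 2.3.3, checked on simulated intervals. Covered means at least 1 bp unless a share is given. A peak's rank is by −log10 p within its list.

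Named genes were the 5 highest and 5 lowest by kept share, the 3 with the longest control cover, the 3 best-ranked in each list, those on chromosome 8, those with no window cover or longer cover after treatment, and a set with special roles. Some genes that these rules pick are not reported here by name. The members and lists were chosen with earlier results of these data known. RPS26, RPL15, EEF1A1, EEF1G, EIF3L and the genes with strong peaks in both lists were named after their values were seen. Alternatives were the window and flank size, the start used, at least 50% of the window for covered, peak thresholds, a control list trimmed to the length of the other, and chromosome 8 left out. With 1 library per condition no test was made.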

Additional observations from a re-analysis of the deposited data

How the results depend on the processing

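Under the alternatives 17 recomputed values moved and 31 did not, with limits of 1.5 times for counts and of the 95% interval over genes for shares. The genes share the same 2 libraries, so this interval does not measure a spread between libraries. With at least 50% of the window required, the count after SNDX-50469 went from 72 to 49 of 73, which these limits class as not moved. With a window of 500 bp on each side the kept share rose to 76.3% of the summed cover and a median of 92.6%, and with 2 kb it was 47.1% and 46.1%. With peaks of −log10 q of at least 5, 7 windows were covered after SNDX-50469, the window kept share was 9.30% (median 0), beside 13.4% of the summed length over all genes, and gene and flanks kept 4.72% (median 0). With the control list trimmed to the length of the SNDX-50469 list, 3632 control peaks were left and 26 windows were covered in control, beside 12.3% of all genes. These kept 79.6% of the summed length and a median of 83.5%, close to the 70.7% and 79.5% of all genes. Gene and flanks then kept 50.5% (median 48.5%), and 13 of 29 genes fell to 50% or less. The gene body alone had a median of 32.7%, and a common −log10 p cutoff gave 32.5% for gene and flanks. That cutoff left the window median at 69.4%, beside 23.1% for all genes. The stricter thresholds left fewer peaks, and the cause of these moves was not tested. All values without chromosome 8 stayed within these limits. No paired analysis was possible because there is 1 library for each condition. The unknown read depth limits every comparison of cover between the lists.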

Other observations

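Genes that the choice of symbols or chromosomes left out give a view of the same ribosome. Of the 7 such genes listed, among them RPL10 and RPL39 on the X chromosome, 6 windows were covered in control and 6 after SNDX-50469, with a median kept share of 41.9% over the 6 with control cover. RACK1, a scaffold protein on the small subunit, kept all of 2001 bp. RPL10 had 2001 bp in control and kept 61.6%, RPL39 had 1828 bp and kept 42.7%, FAU had 1656 bp and kept 41.1%, and RPL36A had 2001 bp and kept 22.4%. RPS4X went from 921 bp to none, as RPL11 did among the 73.

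The 8 paralogues with a suffix, several of which are made in few tissues, were covered in control at all 8 windows and after SNDX-50469 at 4, with a median kept share of 4.85%. RPL22L1 had 978 bp in control and kept 78.7%, RPL7L1 had 2001 bp and kept 69.4%, and RPL36AL had 2001 bp and kept 53.3%. RPL39L had 1278 bp and kept 9.70%. RPL3L, RPL10L, RPL26L1 and RPS27L had 1460, 436, 324 and 2001 bp in control and none after treatment. The partner genes among the 73 kept more than their paralogue at RPL22 (93.4%), RPL7 (100%), RPL3 (53.2%), RPL26 (8.39%) and RPS27 (52.8%). Of the X-linked partners, RPL10 and RPL39 kept more than theirs, and RPL36A kept less than RPL36AL. These are 2 short lists described with no test.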
